A study of Mus musculus with 5 samples.

Results

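The miRNAs described here are the 5 major products of the paired miR-23, miR-27 and miR-24 clusters, namely mmu-miR-23a-3p, mmu-miR-23b-3p, mmu-miR-27a-3p, mmu-miR-27b-3p and mmu-miR-24-3p, written below without the prefix for mouse. They were found on the Agilent mouse miRNA array by name, as 5 of the 1247 miRNAs it measures. None was picked by its values, though earlier results of these data were known when the members were chosen. Each member had 2 probes of its own, both were detected on every array, and all 5 therefore belonged to the 182 miRNAs detected on all 5 arrays. The RNA came from kidney tissue of male C57B/6 mice. In the ischemia reperfusion injury (IRI) groups both kidneys were made ischemic for 30 min and the mice were killed 6, 12, 24 or 48 h later, whereas the sham mice had the operation without the vascular clamp and the labels give no time point for them. The study used 8 mice per time point, but each group is represented by 1 array, and whether RNA was pooled for it is not given in the sources used here. No spread between mice was measured and no test between groups was possible. Errors are those of the scanner software for 1 array, and each time point is compared with the same sham array.

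A mature miRNA is loaded into Argonaute and recognizes mRNAs mainly through its seed, the stretch of bases near its 5′ end, after which the mRNA is repressed or degraded. Mammalian genomes hold the miR-23, miR-27 and miR-24 hairpins as a pair of copied clusters, each transcribed as one precursor. miR-23 and miR-27 are known for promoting vessel sprouting in endothelium, miR-27 also for repressing Pparg, a regulator of lipid metabolism, and miR-24 for repressing cell cycle and DNA repair genes, among them E2f2 and H2ax.

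The mature sequences show which members can share targets and which the array must tell apart. RefSeq entries (GRCm38.p6) matched 4 of the 5 members, and the seed, bases 2 to 8, is in capitals in each sequence, written 5′ to 3′.
miR-23a-3p: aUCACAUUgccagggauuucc
miR-27a-3p: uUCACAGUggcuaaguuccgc
miR-27b-3p: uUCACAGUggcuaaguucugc
miR-24-3p: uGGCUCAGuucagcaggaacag
The 4 sequences held 3 different seeds, and miR-27a-3p and miR-27b-3p had the same seed. Over their 21 bases, miR-27a-3p and miR-27b-3p differed at 1 position, C19U counted from the 5′ end of the miRNA, which lies outside the seed.

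The a cluster lies on chromosome 8 and holds Mir23a (chr8:84208518-84208592), Mir27a (chr8:84208672-84208758) and Mir24-2 (chr8:84208815-84208921) on the plus strand, within 404 bases. RefSeq places no protein-coding gene over these hairpins, and Mir24-2 overlaps the miRNA gene Mir3074-2. The b cluster lies on chromosome 13 and holds Mir23b (chr13:63300484-63300557), Mir27b (chr13:63300712-63300784) and Mir24-1 (chr13:63301208-63301275), also on the plus strand, within 792 bases. These hairpins lie within the span of the protein-coding gene Aopep, for which exons were not used here, and Mir24-1 overlaps Mir3074-1. miR-24-3p is encoded with the same mature sequence in both clusters, at chr8:84208875-84208896 and chr13:63301251-63301272, so its signal cannot be divided between them.

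The array reads each member with short probes complementary to the 3′ part of the miRNA. The probes of 17 bases show how little separates the a form from the b form, and the base that differs is in capitals.
miR-23a-3p probe: ggAaatccctggcaatg
miR-23b-3p probe: ggTaatccctggcaatg
miR-27a-3p probe: gcGgaacttagccactg
miR-27b-3p probe: gcAgaacttagccactg
The probes of the miR-23 forms differed by A3T and those of the miR-27 forms by G3A, counted from the 5′ end of the probe. How much of one form binds to the probe of the other was not tested.

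On the series as a whole, between 197 and 298 miRNAs were detected on an array. The sham and 6 h arrays shared a slide and a scan, and the 12, 24 and 48 h arrays shared another slide, with the 48 h array in a separate scan, so that the slide cannot be told apart from the injury when sham is set against 12, 24 or 48 h. The software multiplied probe signals by an effective feature size fraction of 0.6 on the sham, 6 and 48 h arrays (a default value) and of 0.774 and 0.776 at 12 and 24 h (estimated), which raises the last 2 by 0.37 on the log2 scale. The 182 miRNAs had a median log2 ratio over sham of 0.16, 0.55, 1.03 and −0.23 at 6, 12, 24 and 48 h, and the mean log2 ratio of 4 spike-in controls was 0.069, 1.05, 1.09 and 1.04. Member values are therefore given unscaled, with 1 feature size, and against the median of the 182 miRNAs. Of 7 kidney tubule miRNAs, among them miR-192-5p and miR-200b-3p, 6 were detected on every array, with miR-215-5p undetected on each. In bulk tissue, fewer cells of a type and less RNA per cell cannot be told apart.

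All 5 members had their highest unscaled signal at 24 h after IRI. The median log2 ratio of the 182 miRNAs over sham was also highest there (1.03), so this peak is no result about the members. The share of the 182 with the same peak was not counted. Own-probe signals are sums of the detected probes of a miRNA in arbitrary units, and since probes differ in brightness, the signals of different members are not compared with each other. miR-23a-3p read 172 ± 14.0 (scanner error) on the sham array and 214 ± 17.4, 303 ± 24.5, 432 ± 35.0 and 164 ± 13.4 after 6, 12, 24 and 48 h. The 48 h and sham arrays were not separated by their combined scanner error for this member, and 6, 12 and 24 h followed above sham in that order, each higher than the one before by more than the error. miR-23b-3p read 303 ± 24.5 in sham and 308 ± 24.8, 408 ± 32.8, 661 ± 53.1 and 205 ± 16.8 at the same times after IRI. Here sham and 6 h were not separated, and 48 h was below sham by more than the error.

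miR-27a-3p was the one member whose lowest signal was that of the sham array. It read 171 ± 14.3 in sham and 243 ± 20.2, 351 ± 29.0, 517 ± 42.6 and 212 ± 17.7 after 6, 12, 24 and 48 h. Ordered by level, its neighbouring arrays each differed by more than the error. miR-27b-3p read 86.5 ± 7.41 in sham and 111 ± 9.55, 165 ± 14.1, 220.4 ± 18.8 and 74.3 ± 6.69 after IRI. Its order of arrays was that of miR-23a-3p, with 48 h below sham by slightly more than the error. miR-24-3p read 497 ± 36.4 in sham and 619 ± 45.5, 660.3 ± 48.1, 1051 ± 77.0 and 423 ± 31.0 after IRI, and its 6 and 12 h arrays were not separated. With 1 feature size the 24 h array remained the highest for every member, as it did for the median log2 ratio of the 182 miRNAs (0.66). The 6 and 12 h arrays then differed by less than the error for miR-23a-3p, miR-23b-3p and miR-27a-3p, while miR-24-3p was lower at 12 h (512) than at 6 h (619).

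**Figure D1:**
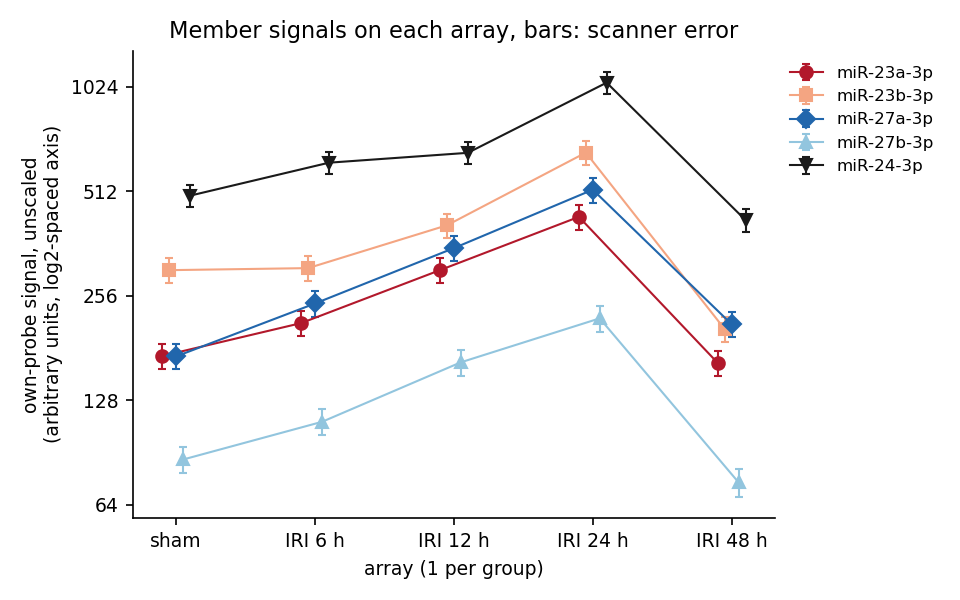
Unscaled own-probe signal of the 5 members (arbitrary units, log2-spaced axis) on the 5 arrays, 1 per group, with bars for the scanner error. Each line is highest at 24 h, and at 48 h miR-27a-3p (212) lies above its sham value (171) while the other 4 lie below theirs.

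The first comparison asks how far the members moved from sham in the signals as deposited. Unscaled, the log2 ratio over sham at 24 h was 1.59 ± 0.17 for miR-27a-3p (3.02-fold), 1.35 ± 0.17 for miR-27b-3p (2.55-fold), 1.33 ± 0.17 for miR-23a-3p (2.51-fold), 1.12 ± 0.16 for miR-23b-3p (2.18-fold) and 1.08 ± 0.15 for miR-24-3p (2.11-fold). All 5 members were thus at least 1.5-fold higher at 24 h, where 85.2% of the 182 miRNAs were. At 12 h 3 of 5 members were at least 1.5-fold higher (48.4% of the 182), namely miR-27a-3p, miR-27b-3p and miR-23a-3p. At 6 h none was 1.5-fold higher (24.7% of the 182) or lower (4.95%), and the log2 ratios ran from 0.020 for miR-23b-3p to 0.51 for miR-27a-3p. No member was 1.5-fold lower at 12 or 24 h (0.549% of the 182 each). At 48 h no member was 1.5-fold higher (16.5%) or lower (23.6%). The log2 ratio was then 0.31 ± 0.17 for miR-27a-3p and −0.067 ± 0.17 for miR-23a-3p, against −0.22 ± 0.18 for miR-27b-3p, −0.23 ± 0.15 for miR-24-3p and −0.56 ± 0.17 for miR-23b-3p. Most of the 182 miRNAs were also higher at 24 h, so the count of 5 of 5 is no result about the members.

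With 1 feature size on all arrays, the log2 ratios at 24 h were between 0.71 for miR-24-3p and 1.22 for miR-27a-3p. All 5 members were still at least 1.5-fold above sham (54.4% of the 182), and at 12 h this held for miR-27a-3p alone (32.4% of the 182). No member was 1.5-fold lower at 12 h (6.04% of the 182) or 24 h (0.549%), and at 6 and 48 h the values are the unscaled ones, since the feature size was that of sham. On this scale the 5 members had a median of 0.32, 0.45, 0.96 and −0.22 at 6, 12, 24 and 48 h, against 0.16, 0.18, 0.66 and −0.23 for the 182 miRNAs. Scaling by the 4 spike-in controls changed the direction for every member at 12 h and for single members at the other times. After it 4, 0, 4 and 0 members were above sham at 6, 12, 24 and 48 h, against 5, 5, 5 and 1 unscaled. The values at 24 h then ran from −0.0084 for miR-24-3p to 0.50 for miR-27a-3p. Of the 182 miRNAs, 74.7%, 86.3%, 99.5% and 39.0% were above sham at 6, 12, 24 and 48 h without scaling, and 63.2%, 28.6%, 46.7% and 7.14% with the spike-ins. The height of the members over sham therefore depended on the scale. Their distances from each other did not, by construction, since each of these scales applies a common factor to an array.

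**Figure D2:**
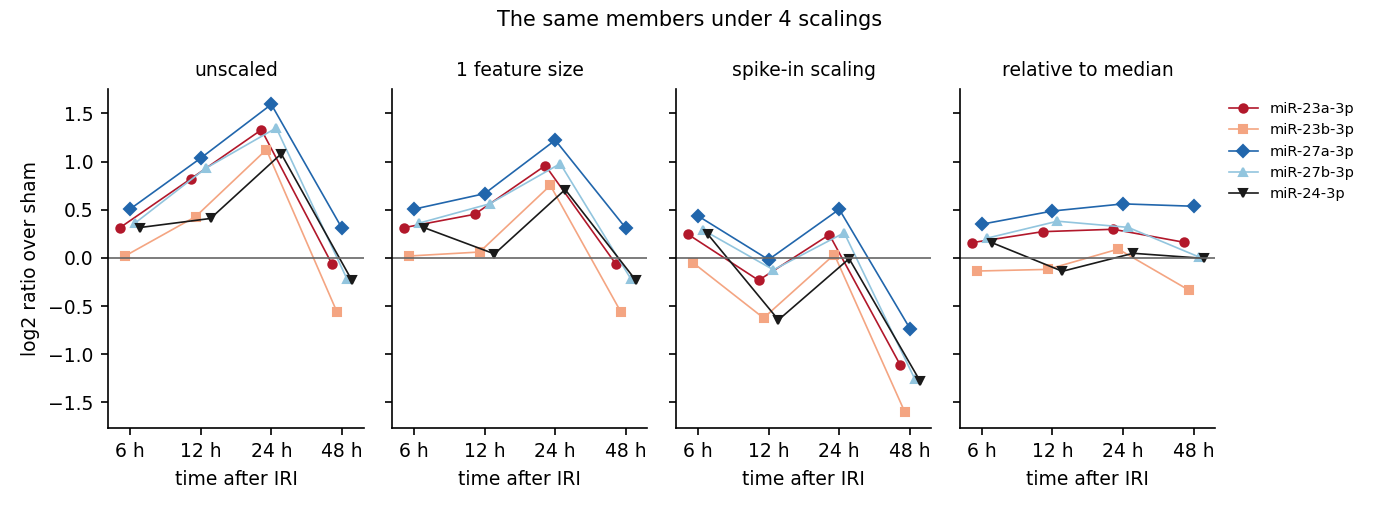
Log2 ratio over sham of the 5 members on the 4 arrays after IRI, unscaled, with 1 feature size, after spike-in scaling, and minus the median of the 182 miRNAs. The lines shift together between the first 3 panels, and at 24 h miR-27a-3p had 1.59, 1.22, 0.50 and 0.56 in the 4 panels.

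Against the median of the 182 miRNAs, a scale on which any factor shared by all signals of an array cancels, none of the 5 members was at least 1.5-fold higher at 6 h (23.1% of the 182), 12 h (28%), 24 h (23.6%) or 48 h (21.4%), and none was 1.5-fold lower (6.04%, 11.5%, 9.34% and 12.1%). With shares this low over the 182, a count of 0 of 5 is no result about the members. Their median was 0.16, 0.27, 0.30 and 0.010 at these times. For comparison, the quartiles of the 182 miRNAs ran from −0.32 to 0.56 at 24 h.

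miR-27a-3p was the highest member at each time point. Its relative log2 ratios over sham were 0.35, 0.49, 0.56 and 0.54 at 6, 12, 24 and 48 h. Each was beyond its scanner error of 0.17. All of them share the sham reading of miR-27a-3p, so an error in that reading would enter each alike. Between the later arrays its relative log2 ratio was 0.13 from 6 to 12 h, across slides. It was 0.096 from 12 to 24 h and −0.044 from 24 to 48 h. These steps were all within the error. By its ratios over sham, miR-27a-3p ranked 46, 54, 46 and 42 from the top of the 182 miRNAs. It lay above the upper quartile of the 182 at 6 h (0.34) and 48 h (0.48), each time by less than its scanner error. At 12 h it lay below that quartile (0.76). At 24 h it was level with that quartile to 2 decimals (0.56). miR-23a-3p had 0.16, 0.27, 0.30 and 0.16, of which the values at 12 and 24 h were beyond the error. miR-27b-3p had 0.20, 0.38 and 0.32 at 6, 12 and 24 h, beyond its error each time, and 0.010 at 48 h. miR-23b-3p was near or below the median, with −0.14, −0.12, 0.091 and −0.33, and of these the 48 h value was beyond the error (rank 138) and below the lower quartile of −0.31. miR-24-3p had 0.16, −0.14, 0.048 and −0.0047, and the value at 6 h exceeded its error of 0.15 slightly.

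**Figure D3:**
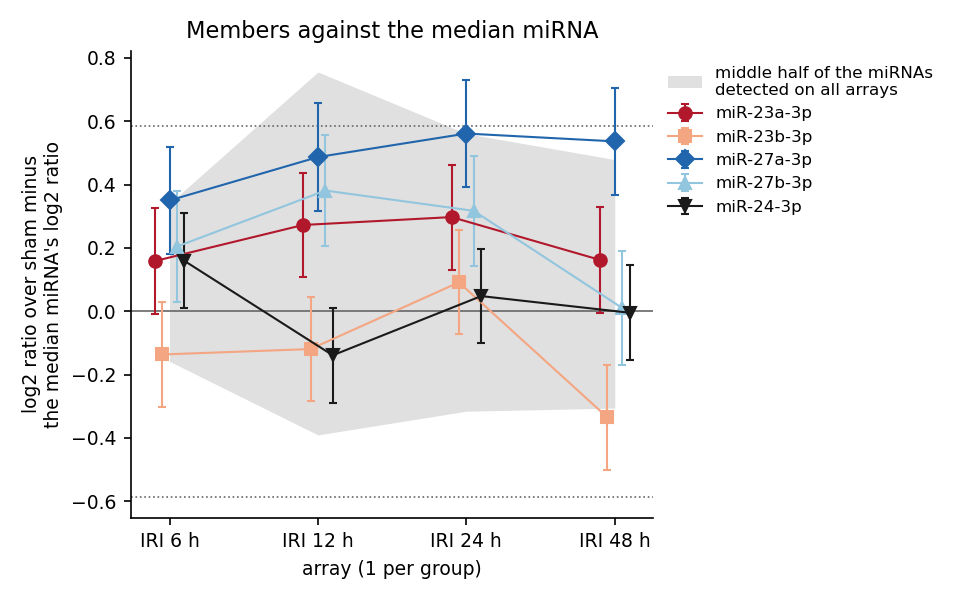
Log2 ratio over sham of each member minus the median of the 182 miRNAs, with bars for the scanner error. The grey band lies between the quartiles of those miRNAs and the dotted lines mark 1.5-fold. miR-27a-3p stays between 0.35 and 0.56, and miR-23b-3p is lowest at 48 h with −0.33.

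The next comparison sets the a forms against the b forms, a difference that no common factor of an array can change. In both pairs the a form had the higher log2 ratio over sham at each of the 4 time points. The difference miR-23a-3p minus miR-23b-3p was 0.29, 0.39, 0.21 and 0.50 at 6, 12, 24 and 48 h, with a scanner error of 0.23 each time. The difference miR-27a-3p minus miR-27b-3p was 0.15 ± 0.24, 0.11 ± 0.24, 0.24 ± 0.24 and 0.53 ± 0.25 at the same times. The 48 h differences of 1.41-fold for miR-23 and 1.44-fold for miR-27 were the largest of the 4 in each pair and beyond their scanner errors. The difference of miR-23 at 24 h and those of miR-27 at 6 and 12 h were within the error, and that of miR-27 at 24 h equalled its error to 2 decimals.

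With both pairs averaged, the a forms were above the b forms by 0.22 ± 0.17, 0.25 ± 0.17, 0.22 ± 0.17 and 0.51 ± 0.17 at 6, 12, 24 and 48 h. At 48 h the a forms had a mean unscaled log2 ratio over sham of 0.12 and the b forms one of −0.39. Between the 24 and 48 h arrays, which lie on the same slide, the mean of the a forms was lower by 1.34 and that of the b forms by 1.63 (log2 ratios of −1.34 and −1.63), a difference of 0.29 ± 0.17. Between 12 and 24 h, on the same slide and in the same scan, the a and b forms differed by −0.024 ± 0.17. Since every time point is set against the same sham array, an error in the sham value of a b form would enter all 4 differences alike.

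The members can also be divided by name, into miR-27 and miR-23 forms, in place of cluster. The seed of miR-23b-3p was not read here. The miR-27 forms had a higher mean log2 ratio over sham than the miR-23 forms. The differences were 0.27, 0.36, 0.24 and 0.36 at 6, 12, 24 and 48 h, each beyond the error of 0.17. They share the sham array, so an error in its values for these forms would enter each of them alike. Between later arrays of the same slide, miR-27 minus miR-23 was −0.11 from 12 to 24 h and 0.11 from 24 to 48 h. Both steps were within the error of 0.17. In log2 ratio over sham, miR-27a-3p and miR-23b-3p, which lie in different clusters, differed by up to 0.87 (at 48 h). On the same measure miR-23a-3p and miR-27b-3p differed by at most 0.15.

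**Figure D4:**
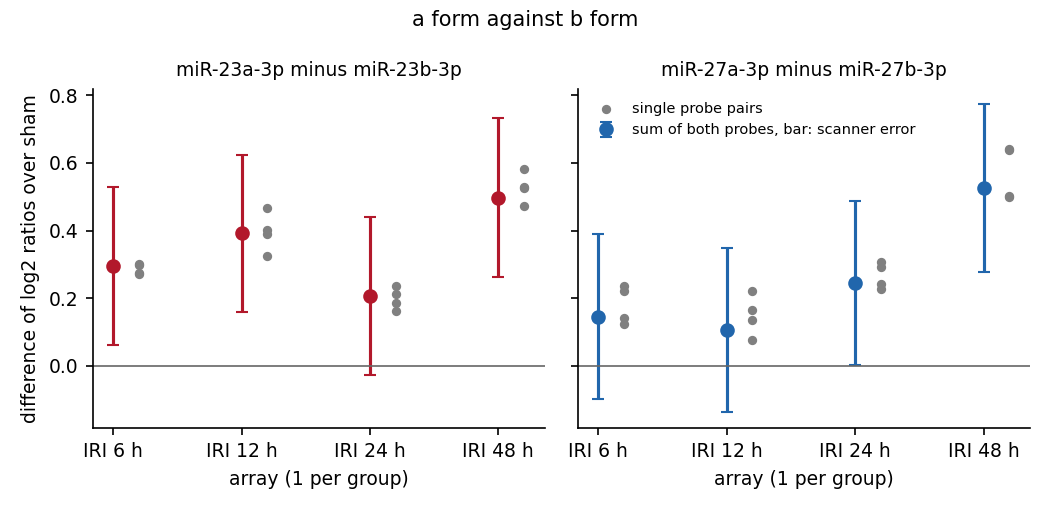
Log2 ratio over sham of the a form minus that of the b form for miR-23 (left) and miR-27 (right) on the 4 arrays after IRI; coloured points use both probes with bars for the scanner error, and grey points are the 4 pairs of single probes. Every grey point lies above 0, and the differences are highest at 48 h, at 0.50 and 0.53.

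miR-24-3p, the product of both clusters, did not follow the mean of the other members throughout. Its log2 ratio over sham minus the mean of the other 4 was 0.015, −0.39, −0.27 and −0.098 at 6, 12, 24 and 48 h, with an error of 0.17. The differences at 12 and 24 h were beyond the scanner error, and at these times miR-24-3p had the lowest log2 ratio of the 5 members (0.41 and 1.08). From 12 to 24 h its signal changed by a log2 ratio of 0.67 ± 0.15, against a mean of 0.55 for the others. That difference, 0.13 ± 0.17, was within the scanner error.

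Steps between arrays of the same slide leave out the difference between slides. From sham to 6 h, within slide 1 and 1 scan, the members had unscaled log2 ratios with a median of 0.32, and the 182 miRNAs one of 0.16. From 12 to 24 h, within slide 2 and 1 scan, the 5 members had log2 ratios of 0.42 to 0.69 with a median of 0.56 (0.46 for the 182), of which 0.096 was left against the median miRNA. From 24 to 48 h, on the same slide in separate scans, they had −1.69 to −1.29 with a median of −1.40 (−1.24 for the 182). Part of that step comes from the feature size, and with 1 feature size the median was −1.03. Against the median miRNA the log2 ratio of 48 h over 24 h was beyond the scanner error for miR-23b-3p (−0.45 ± 0.17, rank 143 of 182 from the top) and miR-27b-3p (−0.33 ± 0.18, rank 134), and within it for miR-23a-3p (−0.15), miR-24-3p (−0.072) and miR-27a-3p (−0.044).

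The 2 probes of each member gave a limited check within the arrays. The shorter probe has the same bases as part of the longer, and both read the same hybridized RNA. The 2 are therefore not independent readings. Over the 20 combinations of member and time point, the log2 ratios of the 2 probes over sham differed by a median of 0.053 and by at most 0.14, for miR-27b-3p at 48 h. Against the median miRNA both probes had the same sign in 18 of 20 combinations, and the 2 exceptions were miR-27b-3p and miR-24-3p at 48 h, whose values were near 0. In both pairs and at each time point, all 4 combinations of an a probe with a b probe gave a difference above 0. At 48 h they ran from 0.47 to 0.58 for miR-23 and from 0.50 to 0.64 for miR-27. Each probe was printed in 20 spots, all well above background, and with outlier spots left out (at least 14 of the 20 were kept) the coefficient of variation over spots was 1.74% to 9.88%. The standard error of a probe's log2 ratio over spots was 0.011 to 0.041, well under the scanner error of 0.20 to 0.29, which includes a multiplicative error of 10% preset in the software. Neither error contains the variation between arrays or mice.

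The other arms of the same hairpins were at the detection limit. Of the 6 other products, miR-23a-5p, miR-23b-5p, miR-27a-5p, miR-27b-5p, miR-24-1-5p and miR-24-2-5p, 5 were detected on no array. miR-24-1-5p was detected on 1 array, at 6 h, by 1 of its 2 probes with a signal of 4.63 ± 1.54, just above the limit of 3 times the error, and its brightest reading, 5.71 ± 2.82 at 24 h, did not pass that limit. No fold is given for it. The total gene signal of the software listed miR-24-1-5p at 312 at 6 h, a value that its own probes do not hold, whereas for the 5 members the log2 ratios from the total gene signal and from their own probes were equal to 2 decimals.

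The miRNAs most like a member were sought among the 182 by the root mean square (RMS) difference of the log2 ratios over sham at the 4 time points. The miRNA nearest to miR-23a-3p among 181 others was miR-27b-3p, and the reverse also held, with an RMS difference of 0.097. They come from different clusters. miR-221-3p, known to repress the receptor Kit, was the nearest to miR-27a-3p (0.15) and the second nearest to miR-23a-3p (0.14), with relative log2 ratios of 0.21, 0.44, 0.36 and 0.38. miR-30b-5p was the second nearest to both miR-27a-3p (0.21) and miR-27b-3p (0.17). In the next place came miR-1839-3p for miR-23a-3p (0.15), miR-29c-5p for miR-27a-3p (0.22) and miR-221-3p for miR-27b-3p (0.19). The miRNAs nearest to miR-23b-3p were miR-331-3p (0.14), miR-26a-5p (0.14) and miR-103-3p (0.17), and those nearest to miR-24-3p were miR-140-5p (0.11), miR-15a-5p (0.14) and miR-141-3p (0.15). All of these RMS differences were below 0.23, the scanner error of a single miR-23a-3p minus miR-23b-3p difference. The order of near neighbours is therefore a description that the arrays do not resolve.

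The miR-23 and miR-27 products of one cluster were not each other's nearest in this description, whose ranks carry no error. In the a cluster (RMS difference 0.27), miR-27a-3p ranked 22 of 181 seen from miR-23a-3p, and miR-23a-3p ranked 5 seen from miR-27a-3p. In the b cluster (0.37), miR-27b-3p ranked 57 seen from miR-23b-3p, and miR-23b-3p ranked 33 seen from miR-27b-3p. Of the forms with nearly the same sequence, miR-23b-3p ranked 37 seen from miR-23a-3p and 56 the other way (0.36), and miR-27b-3p ranked 9 seen from miR-27a-3p and 18 the other way (0.30). The largest RMS difference between members was 0.63, between miR-23b-3p and miR-27a-3p. For scale, the median RMS difference of a member to the 181 others was between 0.50 for miR-24-3p and 0.79 for miR-27a-3p.

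miRNAs of single cell types were read on the same arrays. Of the endothelial pair miR-126-3p and miR-126-5p, the latter was detected on the sham array alone. miR-126-3p had relative log2 ratios of −0.065, −0.43, −0.40 and −0.27 at 6, 12, 24 and 48 h. The summed signal of this list was 831 in sham and between 586 and 1284 after IRI. The 6 tubule miRNAs summed to 1976 in sham and to between 1524 and 3020 after IRI, with relative log2 ratios of the sum of −0.080, −0.27, −0.42 and −0.15. Within this list miR-204-5p, one of the dimmer signals, had 0.57, 1.65 and 0.42 at 12, 24 and 48 h, and miR-194-5p had 0.23 at 12 h. The red cell list was read by miR-451a alone of the 3 miRNAs present by name, since miR-144-3p and miR-144-5p were undetected on each array. miR-451a read 159 in sham and 500.3, 234, 538 and 105 after IRI, so its highest arrays were those of 6 and 24 h, with relative log2 ratios of 1.49, 0.0035, 0.72 and −0.37. Of 5 leukocyte miRNAs 2 or 3 were detected on an array, summing to 38.2 in sham and to between 58.2 and 99.8 after IRI. Against the median miRNA this sum had log2 ratios of 0.64, 0.84, −0.43 and 0.91, so that it was below sham at 24 h on that scale. The members of this list differed. miR-223-3p had relative log2 ratios of 1.01, 1.19, −0.36 and 0.98, and the dimmer miR-155-5p had 0.15, −0.30, 0.075 and 0.95. miR-142-3p was undetected at 6 and 24 h and added nothing to those sums. miR-143-3p, of smooth muscle and pericytes, had a signal of 41.5 in sham and of 30.6 to 106 after IRI, with relative log2 ratios of 0.17, −0.079, 0.32 and −0.21. The part of these cell types in the members' values was not tested.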

How the data were processed

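Kidney RNA was labeled with Cy3 and hybridized to Agilent mouse miRNA arrays (Release 19.0, 8 × 60K), and groups were taken from the sample titles. The authors deposited intensity values written by Agilent Feature Extraction 10.7.1.1, which had subtracted the background and detrended each array, with no normalization between arrays. They also deposited a table of log2 values, whose preparation is not given in the sources used here. The median of its columns was −3.12 for sham and −3.22, −3.30, −3.32 and −3.01 for the arrays after IRI. Exact values recurred between its arrays, such as 8.34684 for miR-27a-3p at 24 and 48 h and for miR-23b-3p at 6 h. Its scale and centring are not known, and whether it was quantile normalized was not tested. It served as an alternative that may not be independent of quantile normalization.

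For each miRNA, gTotalProbeSignal was summed once per probe over probes above 3 times gTotalProbeError. Squared errors were added. Log2 ratios over sham were computed unscaled, with 1 effective feature size, and minus the median of the miRNAs detected on all arrays. A call was a 1.5-fold difference. The alternatives were spike-in, 75th percentile and quantile scaling, normexp background correction with an offset of 50, the total gene signal, the log2 table, other reference sets, no detection filter and single probes. Named were the 5 members, the other products of their hairpins, the 3 nearest miRNAs by RMS difference and the cell type lists. The names miR-486-5p and miR-145-5p of these lists matched no entry of the array. The members and lists were chosen with earlier results of these data known. Sequences and gene spans are from RefSeq GRCm38.p6.

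Precision is limited by the number of arrays. The computation was tested on simulated data. Normexp and quantile normalization were run in limma 3.58.1 under R 4.3.3, and all else in Python 3.11.15 with pandas 2.3.3 and numpy 2.4.6; figures were drawn with matplotlib 3.10.9. Creatinine, histology, qRT-PCR and cytokine measurements were not analysed here.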

Additional observations from a re-analysis of the deposited data

Results flagged for a closer look

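Some members lay on opposite sides of sham at different time points in the unscaled signals, with both values beyond their scanner errors. For miR-23b-3p the log2 ratio over sham was higher than at 48 h by 0.99 at 12 h and by 1.69 at 24 h. For miR-27b-3p it was higher than at 48 h by 0.58 at 6 h, 1.15 at 12 h and 1.57 at 24 h. For miR-24-3p it was higher than at 48 h by 0.55 at 6 h, 0.64 at 12 h and 1.31 at 24 h. None of these differences was tested, as each time point had 1 array. Against the median miRNA no member lay beyond its scanner error on opposite sides of sham.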

How the results depend on the processing

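No paired analysis was possible because a group held a single array, and no replicate could be left out. A value is called moved where it changed by more than the scanner error. The 32 alternative values of the a minus b differences stayed within that error. Those from the total gene signal and without the detection filter repeat the main values, since both probes of each member were detected on every array. Only normexp and quantile normalization could move these differences. Of 28 alternative values set beside the members' median against the median miRNA, 25 stayed within the error. The exceptions were 0 at 6 h and 0.093 at 12 h after quantile normalization and 0.69 at 12 h with the authors' log2 table. The quantile values were not centred on the median miRNA. After quantile normalization the median of the 182 miRNAs was −0.27 at 6 h and −0.53 at 12 h. The quantile exceptions therefore do not show a lower position against the median miRNA. The unscaled median of the members (0.32, 0.82, 1.33 and −0.22 at 6, 12, 24 and 48 h) stayed within the error in 11 of 32. These include values that repeat the main one, from the total gene signal at each time and from 1 feature size at 6 and 48 h.

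With 1 feature size this median was 0.45 at 12 h and 0.96 at 24 h. With the spike-ins it was −0.23 at 12 h, 0.24 at 24 h and −1.26 at 48 h, and adding 1 feature size gives the same values by construction. The 75th percentile gave 0.017, 0.19 and 0.17 at 6, 12 and 24 h. Quantile normalization gave 0, 0.093, 0.19 and 0.041 at 6, 12, 24 and 48 h, and the log2 values of the authors gave 0, 0.11, 0.16 and 0.043. Normexp gave 0.38 at 12 h and 0.74 at 24 h. The cause was not tested beyond the construction of each scale.

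Single members changed direction in the unscaled comparison. With the spike-ins, the values at 12 h were −0.23 for miR-23a-3p, −0.62 for miR-23b-3p, −0.018 for miR-27a-3p, −0.12 for miR-27b-3p and −0.64 for miR-24-3p, and those of miR-24-3p at 24 h and miR-27a-3p at 48 h were −0.0084 and −0.73. With the 75th percentile, miR-23b-3p had −0.20 at 12 h and −0.037 at 24 h, and miR-24-3p had −0.22 and −0.080. With quantile normalization, miR-23a-3p had −0.025 at 6 h, miR-23b-3p had −0.41 at 12 h, and miR-24-3p had −0.24 at 12 h and 0.061 at 48 h. In the log2 table, miR-23a-3p had −0.028 at 6 h, miR-23b-3p had −0.47 at 12 h, miR-27b-3p had 0.065 at 48 h, and miR-24-3p had −0.31 at 12 h and 0.043 at 48 h. Against the median miRNA no member's value beyond its error changed sign, though the quantile values used for this were not centred.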
